A study of Rattus norvegicus with 17 samples.

Results

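Brg1 occupancy was compared between mature oligodendrocytes (mOL) and immature oligodendrocytes (iOL) of the rat, using the peak list of 1 chromatin immunoprecipitation sequencing (ChIP-seq) library at each stage. The members are all 4378 Brg1 peaks of mOL and all 5465 of iOL, together 9843 of the 189320 peaks in the 17 lists of the series. A peak was called kept where it shared at least 1 bp with a Brg1 peak of the other stage. An mOL peak with no such partner was called gained, and an iOL peak with none was called lost. By this rule 2181 mOL peaks were gained, 3292 iOL peaks were lost, and 2197 mOL peaks and 2173 iOL peaks were kept.

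Brg1, encoded by Smarca4, is the ATPase that powers the BAF chromatin remodelling complex, which uses ATP to slide or evict nucleosomes and so opens DNA to transcription factors. Oligodendrocytes are the glia that wrap axons of the central nervous system in myelin, and Olig2 is a transcription factor that the lineage needs. H3K27Ac marks active enhancers and promoters, H3K4me3 marks promoters, and H3K9me3 marks silenced chromatin. Remodellers of this kind are found at many enhancers far from promoters, which makes the distance of Brg1 peaks from H3K4me3 of interest beside the marks themselves.

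The cells were primary wild-type cells of Sprague-Dawley rats, isolated from the cortex of pups at postnatal day 2. The mOL and iOL libraries carry the label of treatment with T3, a thyroid hormone that promotes oligodendrocyte differentiation, and the precursor (OPC) libraries the label of mitogen treatment. Per the labels' protocols the differentiation medium held T3 at 15 nM and ciliary neurotrophic factor at 10 ng/ml, and the growth medium PDGF-AA at 10 ng/ml and bFGF at 20 ng/ml. The same Brg1 antibody, a gift of J. Wu, is named for all stages. The sources used here give neither the time in culture that separates mOL from iOL nor any pooling of pups or cultures. Since the protocols write of iOL throughout, the stages were taken from the sample titles. Peak lists hold no expression values, and the stage of the cells could not be checked against marker genes.

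Each list gives positions in rat build rn4 and no read numbers, so the depth of every library is unknown. With 1 library per target and stage there is no replicate error, and no test between stages was made. Percentages carry exact Clopper-Pearson 95% intervals, which take each peak as independent and cover only counting error. No binding and binding under the caller's threshold cannot be told apart in such lists. The lists of the marks differed in length. H3K27Ac had 35268 peaks in mOL and 21589 in iOL, H3K4me3 17530 in mOL and 10467 in iOL, and Olig2 2759 in mOL and 25787 in iOL.

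Almost equal numbers of mOL peaks were gained and kept, and most iOL peaks were lost. Gained peaks were 49.8% of the mOL list (48.3 to 51.3), and lost peaks were 60.2% of the iOL list (58.9 to 61.5). H3K27Ac, H3K4me3 and Olig2 had other shares. Of mOL H3K27Ac peaks 47.8% had no iOL partner, while 12.2% of iOL H3K27Ac peaks had none in mOL. For H3K4me3 these shares were 43.6% of the mOL list and 0.497% of the iOL list, and for Olig2 7.25% of the mOL list and 90.0% of the iOL list. Brg1 thus lay between these 2 marks and Olig2 in the share of its iOL list not called in mOL. These shares move with the length of the list they are set against, and how much of each is due to it was not tested.

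The boundary between kept and not kept was sharp for most peaks. The smallest overlaps among kept pairs were 33, 40 and 80 bp, and the gained peaks that came nearest to an iOL peak without touching it were 16, 43 and 53 bp away. Only 37 of the 2181 gained peaks lay within 1000 bp of an iOL Brg1 peak, and 53 of the 3292 lost peaks within 1000 bp of an mOL Brg1 peak. Gained peaks were therefore mostly not the flank of a shifted iOL peak as called.

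Gained and lost peaks were narrower than the kept peaks of their own list. The median width was 757 bp for gained peaks (quartiles 618 and 948 bp) and 878 bp for the kept peaks of mOL (699 and 1096 bp). In the iOL list it was 914 bp for lost peaks (736 and 1155 bp) and 1133 bp for kept peaks (880 and 1450 bp). The files hold no peak score, and width is the only feature of a single peak that they give. When each list was split by width into quintiles, 5 sets of nearly equal size, the kept share was 35.0% in the narrowest quintile of mOL peaks and 65.3% in the widest, with 44.9, 49.1 and 56.7% between. In the iOL list it was 23.2% in the narrowest quintile and 59.6% in the widest. Even the widest quintile of the iOL list, with widths of at least 1363 bp, therefore included 442 lost peaks among 1093.

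Some of the widest peaks of the data were present at 1 stage only. The widest gained peaks were chr17:53556627-53559811 with 3185 bp, chr16:7248203-7250692 with 2490 bp and chr16:48749314-48751755 with 2442 bp. The first of these lay 136 kb from the nearest iOL Brg1 peak and 154 kb from the nearest H3K4me3 peak of mOL, whereas both of the others overlapped H3K4me3 at both stages. The widest lost peak, chr8:10162055-10167006, spanned 4952 bp and had an mOL Brg1 peak 0.721 kb away. The next, chr6:39492211-39496281 with 4071 bp and chr5:101397193-101401232 with 4040 bp, had none closer than 30.7 and 40.7 kb. The widest kept peaks in mOL were chr1:135266007-135269271 with 3265 bp, chr5:123341581-123344414 with 2834 bp and chr4:49194154-49196917 with 2764 bp. All of these 9 regions met H3K27Ac in both mOL and iOL, and all met Olig2 in iOL. High shares of H3K27Ac are general among wide peaks. In the widest quintile H3K27Ac of mOL was met by 94.7% of gained and 97.2% of kept mOL peaks. H3K27Ac of iOL was met there by 73.5% of lost and 90.2% of kept iOL peaks. Over all widths Olig2 of iOL was met by 50.3% of gained, 64.8% of lost and 86.8% of kept places. At the 3 widest lost peaks acetylation was still called in mOL, as at 84.5% of all lost places acetylated in iOL.

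The marks of both stages were then read at each class. Gained peaks changed most between stages: 72.2% met H3K27Ac in mOL (70.3 to 74.1) and 39.7% in iOL (37.6 to 41.7). Lost peaks changed less, with 45.8% in mOL (44.1 to 47.6) and 35.9% in iOL (34.3 to 37.6). Kept peaks had 79.3% in mOL (77.6 to 81.0) and 69.1% in iOL (67.1 to 71.0). With the mOL H3K27Ac list shortened to the 21589 widest peaks, the length of the iOL list, the mOL shares were 59.6% of gained and 35.9% of lost peaks. The rise at gained places thus held with lists of equal length, while lost places then had the same share at both stages. When each Brg1 list was cut to its wider 50% and the peaks were classed anew, 69.1% of lost peaks met H3K27Ac in mOL. By this cut 62.7% of the wider iOL peaks were lost, against 48.8% when set against the whole mOL list. Some of them are therefore kept peaks in the whole lists. The order of the classes was the same at both stages, kept over gained over lost, and the gap between gained and lost places was wider in mOL than in iOL.

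**Figure D1:**
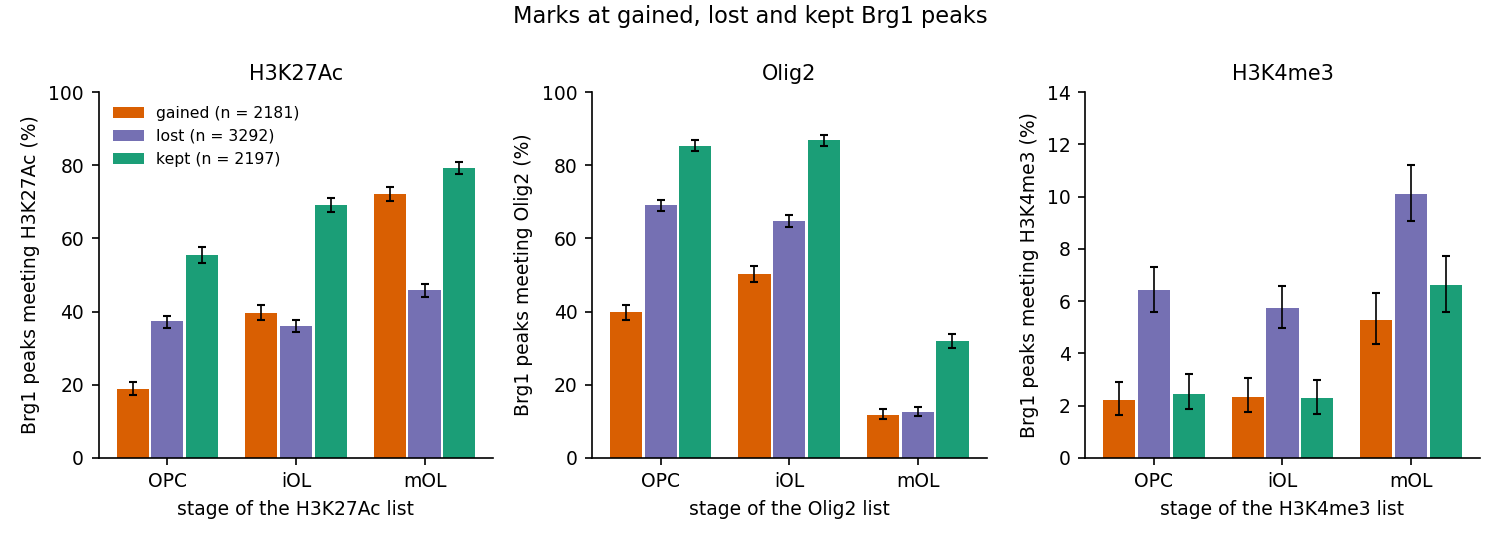
Share of gained, lost and kept Brg1 peaks (percent, y axes) that met a peak of H3K27Ac, Olig2 or H3K4me3 in OPC, iOL and mOL (x axes), with exact 95% binomial error bars and 1 library for each list. Kept peaks are counted in the mOL list. H3K27Ac at gained places was met in 18.9, 39.7 and 72.2% over the 3 stages, and H3K4me3 in mOL was met by 10.1% of lost peaks. The y axis of the H3K4me3 panel ends at 14%.

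The change at single places was also counted. Among gained places without H3K27Ac in iOL, 749 of 1316 met it in mOL (56.9%, 54.2 to 59.6), against 509 of 2109 lost places (24.1%, 22.3 to 26.0) and 312 of 679 kept places (45.9%, 42.2 to 49.8). In the opposite direction, acetylation called in iOL was no longer called in mOL at 39 of 865 gained places (4.51%, 3.23 to 6.11), 183 of 1183 lost places (15.5%, 13.5 to 17.7) and 87 of 1518 kept places (5.73%, 4.62 to 7.02). The share over all iOL H3K27Ac peaks was 12.2%. Lost places were a little above it and gained and kept places below it, although places count Brg1 peaks and the list counts H3K27Ac peaks. Counted as iOL H3K27Ac peaks, the shares were 16.9% with a lost, 4.97% with a gained and 6.00% with a kept Brg1 peak. With no Brg1 in mOL or iOL the share was 12.8%, and those regions were narrower, with a median of 751 bp. Most acetylated places that lost their Brg1 call, 1000 of 1183, were still acetylated in mOL.

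Seen from the acetylated regions, those with gained Brg1 were acetylated in mOL alone about as often as those with no Brg1. Of the 1843 mOL H3K27Ac peaks that held a gained Brg1 peak, 49.8% (47.4 to 52.1) had no H3K27Ac partner in iOL. The share was 50.3% (49.7 to 50.9) among the 29685 H3K27Ac peaks with no Brg1 in mOL or iOL. It was 34.6% (32.3 to 36.9) for those holding a lost peak and 19.8% (18.0 to 21.6) for those holding a kept peak. These regions differed in width. Median widths were 1193 bp with a gained, 1019 bp with a lost and 1405 bp with a kept peak, and 788 bp with no Brg1, so the share of regions acetylated in mOL alone was not compared at equal width.

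Width bears on these shares, since wide Brg1 peaks met H3K27Ac more often in every class. Within quintiles of the mOL list, H3K27Ac of mOL was met by 48.2, 70.2, 79.1, 84.7 and 94.7% of gained peaks and by 50.2, 70.0, 76.0, 87.1 and 97.2% of kept peaks, narrowest first. Averaged over the quintiles, gained minus kept came to -0.711 percentage points (-3.13 to 1.70), an interval that takes in 0, so the lower acetylation of gained than of kept mOL peaks was not detectable at matched width. Lost iOL peaks differed. H3K27Ac of iOL was met by 15.7, 26.4, 35.2, 50.4 and 73.5% of lost peaks and by 30.7, 51.3, 66.7, 75.3 and 90.2% of kept peaks, and lost minus kept averaged -22.6 points (-25.2 to -20.1). Lost peaks were less often acetylated than kept peaks in each of the 5 width quintiles while Brg1 was still called there.

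**Figure D2:**
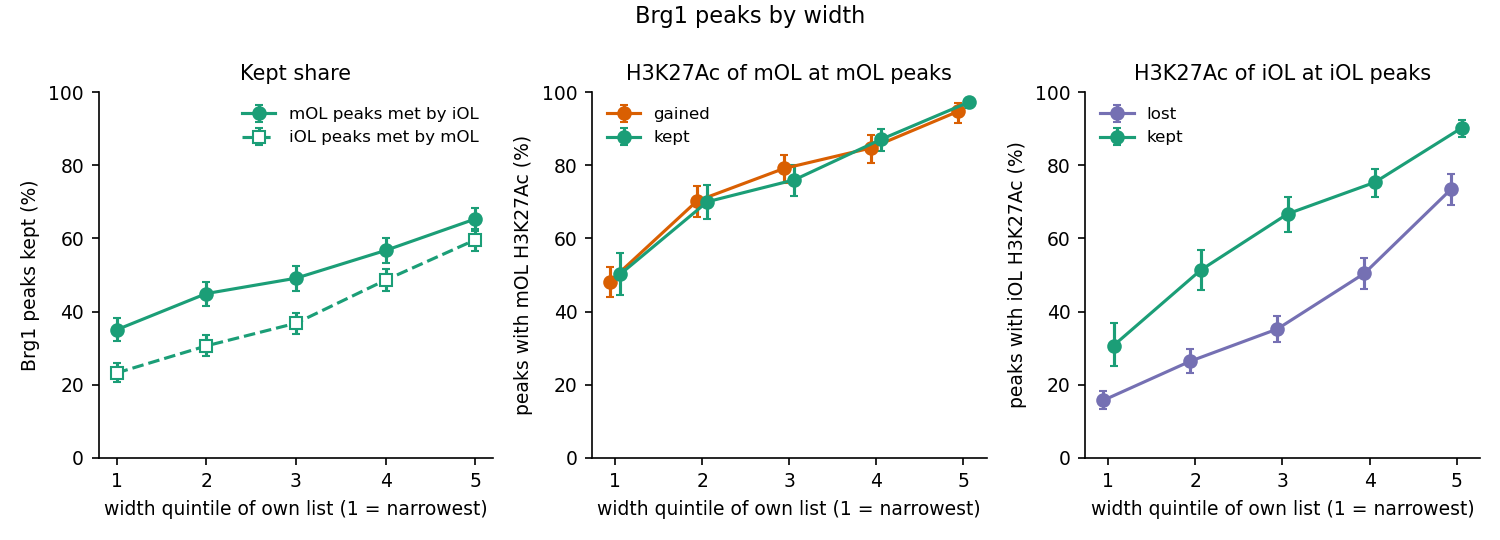
Brg1 peaks by width quintile of their own list (x axes, 1 is the narrowest), as the share kept (left), the share of mOL peaks with H3K27Ac of mOL (middle) and the share of iOL peaks with H3K27Ac of iOL (right), in percent with exact 95% binomial error bars. Gained and kept peaks of mOL lie together at each width, whereas lost peaks of iOL lie below kept peaks at each width.

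Olig2 and acetylation together separated the iOL peaks by what became of them. Of iOL Brg1 peaks that met both Olig2 and H3K27Ac in iOL, 40.2% (38.2 to 42.2) were lost. The share was 66.7% (61.7 to 71.3) with H3K27Ac alone, 70.0% (67.7 to 72.1) with Olig2 alone and 85.7% (83.5 to 87.8) with neither. Against the 60.2% lost over the whole list, only peaks with both were below it. Median widths of these sets were 1213, 975, 904 and 762 bp, in the same order. Within the middle width quintile the lost shares were 43.6, 65.9, 72.2 and 88.7%, and within the widest 33.1, 72.9, 63.6 and 68.3%. Peaks with both had the lowest lost share there too, while the other sets kept no fixed order.

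H3K4me3 and earlier Brg1 binding went with loss in opposite directions. Peaks at H3K4me3 were lost in 189 of 243 cases (77.8%, 72.0 to 82.8), against 59.4% (58.1 to 60.8) of those without it. Peaks that already had a Brg1 peak in OPC were lost in 151 of 456 cases (33.1%, 28.8 to 37.6), against 62.7% (61.4 to 64.0) of those without. The OPC list holds only 452 Brg1 peaks, and its members are wide, with a median of 1282 bp. Median widths were 1069 bp for iOL peaks at H3K4me3 and 982 bp for the others, so the class lost more often was not the narrower one. The iOL peaks that met OPC Brg1 had a median width of 1192 bp and the others 967 bp, and the part of width in this difference was not tested.

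In mOL the same marks were read at gained peaks. Of mOL Brg1 peaks with both H3K27Ac and Olig2 of mOL, 23.4% (20.3 to 26.7) were gained, against 53.9% (51.9 to 55.8) with H3K27Ac alone, 36.4% (30.6 to 42.6) with Olig2 alone and 64.0% (60.5 to 67.3) with neither. Median widths of these sets were 941, 858, 690 and 646 bp, in the same order. Within the narrowest width quintile the gained shares were 38.1, 68.5, 42.4 and 71.9%, and within the middle 34.1, 56.3, 31.0 and 54.3%. Within the widest they were 15.4, 40.8, 26.7 and 70.6%. Sets with Olig2 were lower in each of these, while H3K27Ac alone and neither kept no fixed order. Using the far longer iOL Olig2 list, 36.5% (34.8 to 38.2) of mOL Brg1 peaks at an iOL Olig2 place were gained and 78.9% (76.7 to 81.0) of those elsewhere. Gained peaks thus lay more often away from Olig2 than kept peaks by either list.

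Olig2 calls fell away in every class between iOL and mOL, as in the Olig2 list as a whole. Olig2 was met in mOL and in iOL by 11.8 and 50.3% of gained, 12.6 and 64.8% of lost, and 31.8 and 86.8% of kept places. Among places with Olig2 in iOL, it was still called in mOL at 249 of 1096 gained places (22.7%, 20.3 to 25.3), 413 of 2132 lost places (19.4%, 17.7 to 21.1) and 695 of 1907 kept places (36.4%, 34.3 to 38.7). Over the whole iOL Olig2 list 90.0% of peaks had no mOL partner, so each class was above that list, although the classes count Brg1 places and the list counts Olig2 peaks. Olig2 in mOL at a place without it in iOL was rare, at 9 gained, 2 lost and 4 kept places.

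The history of the gained places reached back to OPC in part. No Olig2 peak of any stage was met by 950 gained places (43.6%, 41.5 to 45.7), 794 lost places (24.1%, 22.7 to 25.6) and 175 kept places (7.97%, 6.87 to 9.18). Acetylation at all 3 stages was found at 16.9% of gained, 24.4% of lost and 49.2% of kept places. Acetylation in mOL without OPC or iOL was found at 717 gained places (32.9%, 30.9 to 34.9), 9.23% of lost and 11.1% of kept places. A set of 702 gained places (32.2%, 30.2 to 34.2) met no Olig2, H3K27Ac or H3K4me3 in OPC or iOL. Of these 416 (59.3%, 55.5 to 62.9) met H3K27Ac in mOL, and 3 met Olig2 in mOL. The same definition held 564 lost places (17.1%), of which 90 (16.0%, 13.0 to 19.2) met H3K27Ac in mOL, and 91 kept places (4.14%), of which 40 (44.0%, 33.6 to 54.8) did.

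At the other end, 559 gained places (25.6%), 1450 lost places (44.0%, 42.3 to 45.8) and 330 kept places (15.0%) met H3K27Ac at no stage. Within mOL itself 27.6% of gained, 53.0% of lost and 20.4% of kept places met none of H3K4me3, H3K27Ac and H3K9me3. H3K9me3 of mOL was met by only 13 gained, 16 lost and 10 kept places. RNA polymerase II, mapped in OPC and iOL only among the lists used, was met in iOL by 0.963% of gained, 0.759% of lost and 2.05% of kept places. Brg1 had been called in OPC at 1 gained, 151 lost and 310 kept places.

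Most Brg1 peaks of all classes lay far from H3K4me3. The median distance to the nearest H3K4me3 peak of mOL was 64.2 kb for gained peaks (quartiles 20.2 and 180 kb), 63.2 kb for lost peaks (15.9 and 193 kb) and 65.6 kb for kept peaks (20.0 and 190 kb). Measured to the shorter iOL list, the medians were 102, 97.5 and 98.1 kb. Over 100 kb from the nearest mOL H3K4me3 peak lay 38.5% of gained, 39.1% of lost and 39.1% of kept peaks. The classes therefore differed little in distance over the bulk of their peaks.

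They differed in direct overlap, where lost peaks had the higher shares. At 1 to 10 kb from H3K4me3 of mOL lay 9.95% of gained, 8.51% of lost and 9.15% of kept peaks, so the excess did not extend to near places. Lost peaks were also wider, with a median of 914 bp against 757 bp for gained and 878 bp for kept mOL peaks. The part of width in the overlap was not tested. H3K4me3 of mOL was met by 5.27% of gained (4.37 to 6.30), 10.1% of lost (9.08 to 11.2) and 6.60% of kept peaks (5.60 to 7.72). For H3K4me3 of iOL the shares were 2.34% (1.75 to 3.06), 5.74% (4.97 to 6.59) and 2.28% (1.69 to 2.99). All 189 lost peaks with H3K4me3 in iOL still met it in mOL, as did 50 of 51 gained and all 50 kept peaks. That is the rule in the whole list, where 0.497% of iOL H3K4me3 peaks had no mOL partner. Loss of Brg1 at H3K4me3 places thus went without loss of the H3K4me3 call.

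**Figure D3:**
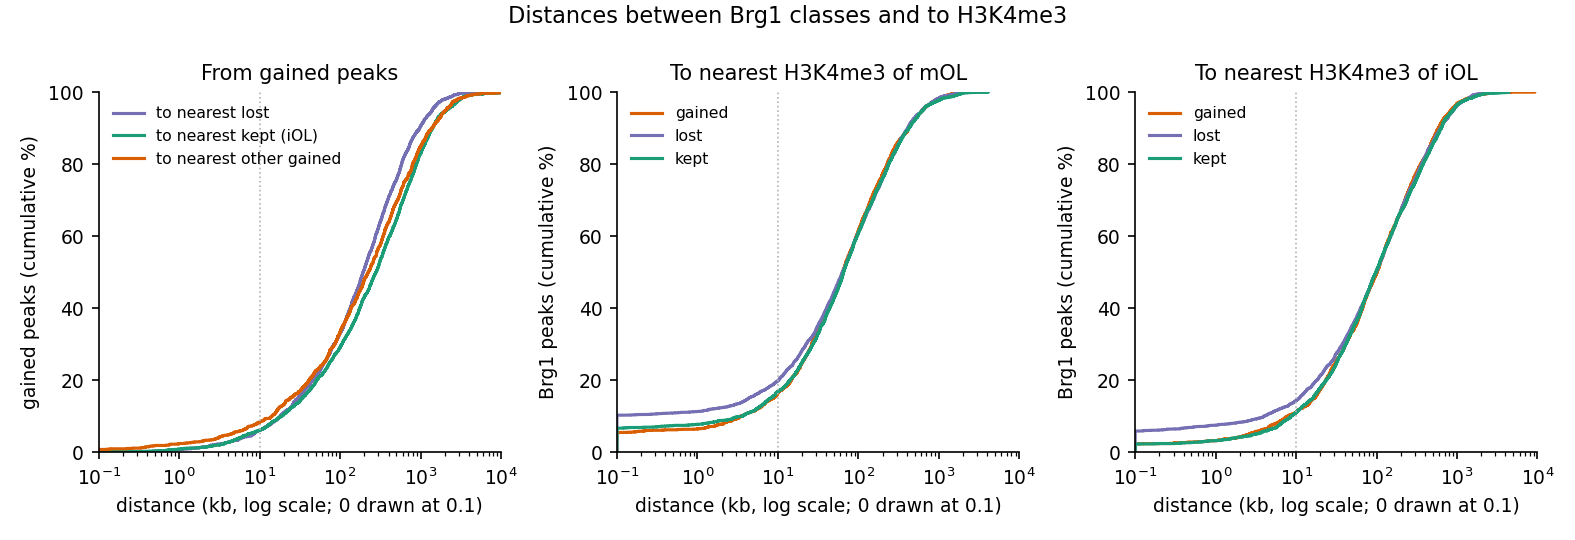
Cumulative share of peaks (percent, y axes) by distance in kb (x axes, log scale, 0 drawn at 0.1, dotted line at 10 kb), from gained peaks to the nearest lost, kept or other gained Brg1 peak (left) and from each class to the nearest H3K4me3 peak of mOL (middle) and of iOL (right). In both panels on H3K4me3 the curve of lost peaks starts higher, at 10.1% and 5.74%, and the 3 curves run together beyond 100 kb.

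Few gained peaks lay within 10 kb of a lost one. The nearest lost peak was a median of 193 kb away (quartiles 64.3 and 484 kb), and 134 gained peaks (6.14%, 5.17 to 7.24) had one within 10 kb. When only the middle 200 bp of every peak was used, this share was 24.9%, since kept peaks with shifted centres then count as both gained and lost. It was 3.35% within 5 kb and 11.0% within 20 kb. The nearest kept iOL peak was 279 kb away, and again 134 gained peaks (6.14%) had one within 10 kb. A gained peak was nearer to a lost than to a kept iOL peak in 1281 cases (58.7%, 56.6 to 60.8), with 3292 lost and 2173 kept peaks to choose from. Lost peaks made up 60.2% of the iOL list, so this share is close to their share of it. Other gained peaks were 224 kb away, with 183 (8.39%, 7.26 to 9.63) within 10 kb. Any other mOL peak lay within 10 kb of 14.0% of gained peaks (12.6 to 15.5). The share was 8.53% with both lists cut to their wider 50% and the peaks classed anew, which also removes neighbours. Lost peaks had another lost peak within 10 kb in 8.20% of cases (7.29 to 9.19) and a gained peak in 4.04% (3.39 to 4.77). Kept mOL peaks had a lost peak within 10 kb in 8.47% of cases (7.34 to 9.71).

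Few acetylated regions held a gained and a lost peak together. Of the 1843 mOL H3K27Ac peaks with a gained Brg1 peak, 14 (0.760%, 0.416 to 1.27) also held a lost one and 19 (1.03%, 0.622 to 1.61) also a kept one. Of the 1509 lost places acetylated in mOL, 46 (3.05%, 2.24 to 4.05) lay in an H3K27Ac peak that held another Brg1 peak of mOL. Lost peaks by their definition touch no mOL Brg1 peak, and these H3K27Ac peaks, with a median of 1019 bp, were little longer than the lost peaks, so low counts here follow largely from the rule.

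Peaks of both stages were joined into neighbourhoods where gaps were at most 10 kb, to ask whether Brg1 left a locus or moved within it. This gave 6882 neighbourhoods, of which 4016 held mOL and 5039 held iOL peaks. Both stages were present in 2173, that is 54.1% of those with mOL peaks (52.6 to 55.7) and 43.1% of those with iOL peaks (41.8 to 44.5). These shares are only a little above the 50.2% of mOL and 39.8% of iOL peaks that were kept as single peaks. A stage was replaced by a near peak of the other, without any kept peak, in 105 neighbourhoods. The bulk was simple: 1770 neighbourhoods were 1 gained peak alone, 2755 were 1 lost peak alone, and 1792 held kept peaks and nothing else. Kept peaks with gained peaks made up 104, kept with lost 145, and all 3 classes met in 27.

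Neighbourhoods with 2 or more peaks of a stage were few, and some of them changed as a whole. There were 73 neighbourhoods of 2 or more gained peaks with no other class, holding 153 gained peaks. In total, 560 mOL peaks lay in neighbourhoods of 2 mOL peaks and 119 in those of 3 or more. Neighbourhoods of 2 or more lost peaks alone numbered 111 and held 229 lost peaks. In total, 316 neighbourhoods had 2 iOL peaks and 49 had 3 or more. Neighbourhoods with more iOL peaks more often retained some Brg1 in mOL, in 41.1% of cases with 1 iOL peak (39.6 to 42.5), 67.1% with 2 (61.6 to 72.2) and 85.7% with 3 or more (72.8 to 94.1; 42 of 49). More peaks also give more chances that any is kept. Per peak, the lost share was 61.1, 56.0 and 52.8%, a far smaller step.

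Named neighbourhoods show these patterns. The one with most peaks, chr2:213978848-214000226, held 5 kept pairs over 21.4 kb and no gained or lost peak. Both peaks of a kept pair count in this ranking, which favours kept places. Its mOL and iOL peaks were 818 and 1793, 645 and 1344, 671 and 1121, 477 and 882, and 864 and 1189 bp wide, so each was narrower in mOL. Each of the 5 met H3K27Ac in mOL, 4 of them also in iOL, and the locus met no H3K4me3 at either stage.

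The neighbourhood chr1:44923288-44940055 had the most lost peaks. Over 16.8 kb it held 7 lost peaks and 1 kept pair, which was 838 bp wide in mOL and 1331 bp in iOL. It also met 1 Brg1 peak of OPC, and no Olig2 peak of mOL or iOL. H3K4me3 covered 11.6 kb of it in mOL and 9.44 kb in iOL, and H3K27Ac covered 16.0 kb in mOL and 11.9 kb in iOL. Here 7 of 8 iOL Brg1 calls were absent in mOL while both active marks covered more of the locus in mOL. Over the whole lists, both marks also covered more of the genome in mOL than in iOL. That rise was proportionally larger than the rise at this locus, which therefore shows no gain of these marks beyond that of the lists.

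The neighbourhood chr5:142863924-142901682 had the most gained peaks together with another one. Over 37.8 kb it held 4 gained peaks, 1 lost peak and 2 kept pairs, of 1781 bp in mOL against 3171 bp in iOL and of 1151 bp in mOL against 1698 bp in iOL. H3K27Ac covered 23.3 kb in mOL and 12.2 kb in iOL, and there was 1 Olig2 peak in mOL and 6 in iOL. Of the 4 gained places, 3 already met H3K27Ac and Olig2 in iOL. The other with 4 gained peaks, chr2:242721451-242742667, also held 1 lost peak, and its H3K27Ac covered 12.4 kb in mOL and 5.05 kb in iOL.

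The neighbourhood chr11:76632190-76652885 consisted of 3 gained peaks of 814, 512 and 820 bp. It met 6 H3K27Ac peaks in mOL and none in iOL, and no Olig2 or H3K4me3 in either. Among loci of lost peaks alone, chr1:158664914-158678747 held 3, with H3K27Ac over 0.377 kb in mOL and none in iOL. At chr1:173796043-173812468, also with 3 lost peaks, H3K27Ac covered 2.10 kb in mOL and 1.02 kb in iOL.

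**Figure D4:**
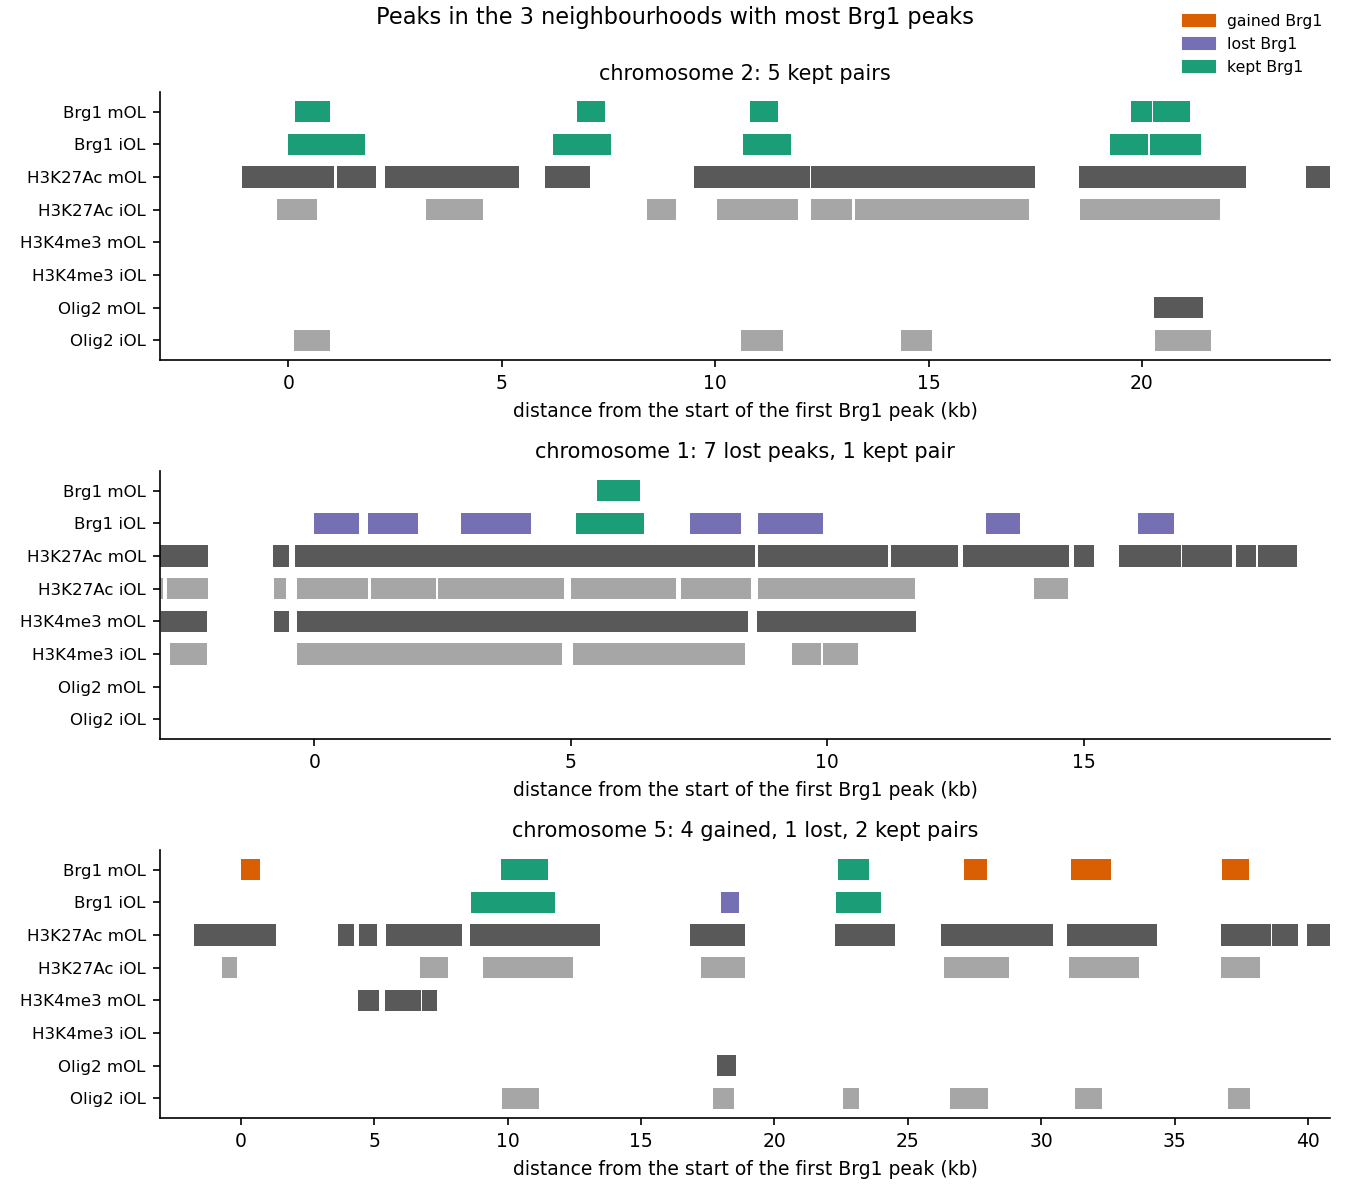
Called peaks (boxes) of Brg1, H3K27Ac, H3K4me3 and Olig2 in mOL and iOL (tracks) along the 3 neighbourhoods with most Brg1 peaks, with distance from the first Brg1 peak in kb on the x axes. The peaks of both stages were counted in this ranking. Top, 5 kept peaks at each stage, taken in order as pairs and each narrower in mOL, with overlaps across pairs at the right end. Middle, 7 lost peaks, of which 5 met H3K4me3 and H3K27Ac of both stages, and 1 kept pair. Bottom, 4 gained peaks, 1 lost peak and 2 kept pairs. Boxes show position and width only, since the lists hold no heights.

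At kept places the Brg1 peak was narrower in mOL. Of the 2207 overlapping pairs, 2123 were 1-to-1, and their median width was 882 bp in mOL and 1131 bp in iOL. The median log2 width ratio, mOL over iOL, was -0.34 (quartiles -0.64 and -0.07), which is a ratio of 0.789. The mOL peak was narrower in 1695 pairs (79.8%), wider in 425 and equal in 3. By at least 1.5-fold, 29.2% of pairs (619) were narrower in mOL and 2.21% (47) were wider. The whole mOL list is also narrower than the iOL list, with medians of 814 and 986 bp. With each width divided by the median of its list, the log2 ratio at kept pairs was -0.07. Most of the narrowing therefore went with the difference between the lists, whose cause was not tested.

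The narrower mOL peak usually sat inside the iOL peak. It lay wholly inside in 1153 of the 2123 pairs (54.3%), and the reverse held in 187 (8.81%). Peak centres differed by a median of 95 bp, and by less than 389 bp in 95% of pairs. Splitting was rare, with 34 iOL peaks that met 2 mOL peaks and 10 mOL peaks that met 2 iOL peaks. Kept pairs were chosen for their overlap, which bounds these shifts. When only the middle 200 bp of every peak was used, 69.6% of iOL peaks had no mOL partner, against 60.2% with whole peaks.

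Narrowing was found with every state of the marks. The median log2 ratio was -0.34 over 1368 pairs acetylated in both mOL and iOL, -0.26 over 304 acetylated in mOL only, -0.47 over 84 acetylated in iOL only and -0.35 over 367 acetylated in neither. Of the 84 pairs that no longer met H3K27Ac in mOL, 78 were narrower there. It was -0.47 over the 291 pairs with a Brg1 peak in OPC and -0.33 over the others, and -0.45 over the 138 pairs at H3K4me3 of mOL and -0.33 over the rest. None of the 138 pairs at H3K4me3 was 1.5-fold wider in mOL, but such widening was rare over all 2123 pairs too, at 2.21%.

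These differences must be read beside the starting width. Over quintiles of iOL width the median log2 ratio was -0.06, -0.24, -0.35, -0.51 and -0.65, narrowest first. Over quintiles of mOL width it ran the other way, at -0.58, -0.41, -0.35, -0.23 and -0.11. A split that takes wide iOL peaks therefore also takes low ratios. The pairs with Brg1 in OPC had a median iOL width of 1268 bp, and those without 1108 bp. The pairs at H3K4me3 of mOL had 1314 bp and the rest 1119 bp.

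**Figure D5:**
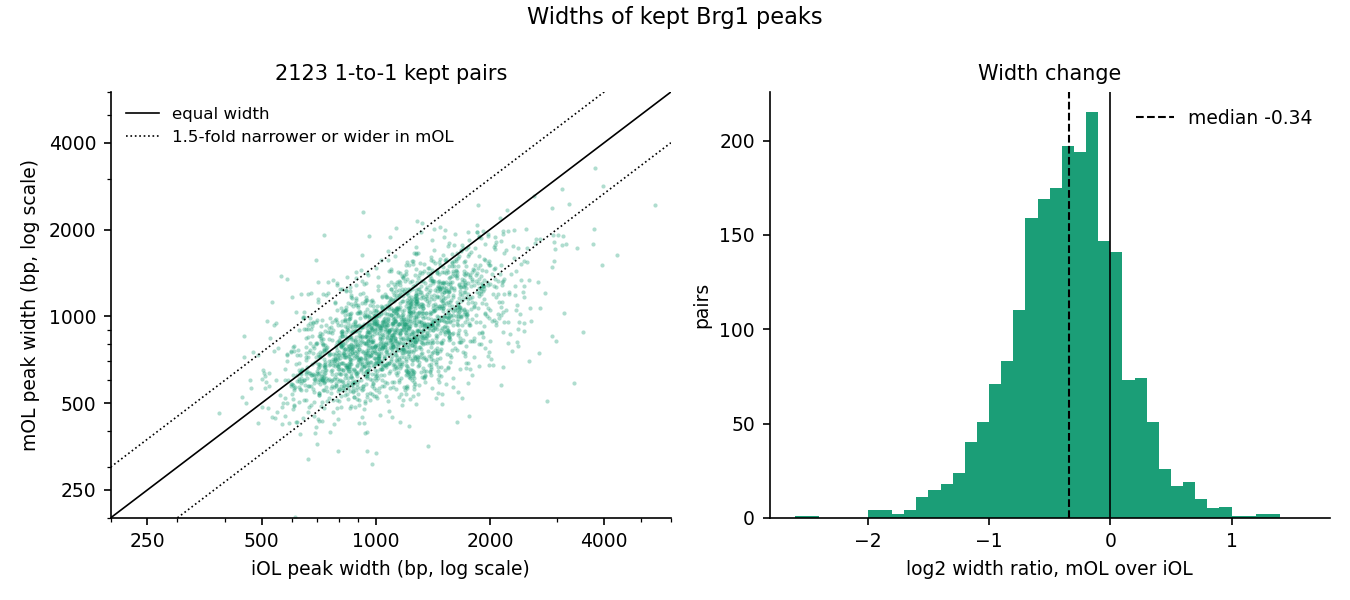
Widths of the 2123 1-to-1 kept Brg1 pairs, mOL against iOL in bp on log axes (left, 1 point per pair), and the distribution of the log2 ratio of mOL over iOL width (right, number of pairs per bin of 0.1). Most points lie under the line of equal width, 1695 of 2123, and the dashed line marks the median of -0.34.

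Single pairs ranged widely around the median. The largest widening in mOL was at chr2:35067308-35069225, where the peak was 1918 bp in mOL against 730 bp in iOL, a ratio of 2.63. Next were chr1:227719602-227721901, with 2300 bp in mOL against 927 bp in iOL (2.48), and chr11:2955238-2956621, with 1384 bp in mOL against 564 bp in iOL (2.45). At the last of these H3K27Ac was met in mOL and not in iOL. The strongest narrowing was at chr18:50404067-50404655, with 589 bp in mOL against 3337 bp in iOL (0.177), at a place with H3K4me3 and H3K27Ac at both stages. At chr1:218142671-218143180 the peak was 510 bp in mOL against 2820 bp in iOL (0.181), with no H3K27Ac at either stage and the nearest H3K4me3 of mOL 371 kb away. At chr13:49503109-49503990 it was 882 bp in mOL against 3514 bp in iOL (0.251). All 6 places met Olig2 in iOL and in OPC, as did 80.1% of all kept mOL peaks.

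Turnover was spread over the genome. Among autosomes the gained share ran between 43.9% on chromosome 18 and 58.5% on chromosome 12, and the lost share between 53.6% on chromosome 20 and 65.6% on chromosome 12. Chromosome X stood apart in the iOL list. Of its 63 iOL peaks 51 were lost (81.0%, 69.1 to 89.8), against 60.0% (58.7 to 61.3) elsewhere, and it held 0.434% of the mOL list and 1.15% of the iOL list. H3K27Ac showed no such fall there, with 1.98% of the mOL and 1.90% of the iOL list on X. The lost peaks of X were narrow, with a median of 805 bp, and 40 of the 51 were narrower than the median of the iOL list. The part of width in this loss was not tested.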

How the data were processed

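ChIP-seq libraries of wild-type Sprague-Dawley rat cells were used, 1 for each of 6 targets at up to 3 stages. The submitters' processing notes name MACS 1.4.0 and rn4. The sources used here give no aligner, threshold, control library or pooling. In each list deposited by the authors, a line holds a peak's chromosome and its 2 ends in base pairs, without a score, so depth is unknown and only position and width were analysed. A deeper library or a looser threshold gives more and wider peaks, which enters every share. Starts were made 1-based by adding 1. Overlap meant at least 1 bp. Distances are gaps between peak edges, with 0 for overlapping peaks. Neighbourhoods joined peaks across gaps of up to 10 kb. Quintiles split each list by width.

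With 1 library per stage, values are descriptions with exact Clopper-Pearson 95% intervals. Intervals of differences averaged over width quintiles are normal approximations, and both kinds treat peaks as independent. The members, classes and lists were chosen with earlier results of these data known. Named are the 3 widest peaks of each class, the 3 neighbourhoods with most peaks, most gained and most lost peaks, and the 3 pairs with the largest and the smallest width ratio, without unplaced sequence. Genes are not named, as the annotation at hand is of another assembly, and sequences are not shown for the same reason. The splits by width quintile and by marks of the own stage were added after the files had been seen. Overlap and distance functions were tested on simulated lists and compared for 6 pairs of lists with bedtools 2.31.1, which gave the same values. Python 3.11.15 with numpy 2.4.6, pandas 2.3.3, scipy 1.17.1 and matplotlib 3.10.9 was used.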

Additional observations from a re-analysis of the deposited data

How the results depend on the processing

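Of 81 alternatives over 12 values, 44 stayed within the error of the reported value and 37 moved past it. None turned a direction round, but only the log2 width ratio and the differences over width quintiles can change sign. Shares and distances cannot, so a turn of direction was not tested for them. The 44 include settings that hardly alter the lists, such as merging overlapping or touching peaks or leaving out unplaced sequence. They also include distance to kept in place of lost iOL peaks, which is another quantity. With only the middle 200 bp of each Brg1 peak, 62.1% of mOL peaks were gained, 69.6% of iOL peaks were lost, and 24.9% of gained peaks lay within 10 kb of a lost one, since kept peaks with shifted centres then count as gained and lost side by side. With the wider 50% of each Brg1 list, peaks were classed anew, so some kept peaks of the whole lists count as gained or lost. Gained were then 53.0% and lost 62.7%. Within 10 kb of a lost peak lay 4.74% of gained peaks, and 8.53% within 10 kb of another mOL peak. Of lost peaks 10.2% lay within 10 kb of another iOL peak. The median distance of gained peaks to H3K4me3 was then 55.8 kb, mOL H3K27Ac was met by 86.8% of gained and 69.1% of lost peaks, and 40.3% of iOL neighbourhoods held mOL Brg1. With Brg1 lists of equal length (the 4378 widest), gained were 55.5% and lost 56.1%, shares that equal lengths make nearly equal by construction. The near-lost share was 4.98%, the log2 width ratio -0.39, mOL H3K27Ac 70.1% of gained and 53.7% of lost peaks, and iOL neighbourhoods with mOL Brg1 47.5%.

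With 5 kb in place of 10 kb, 3.35% of gained peaks were near a lost peak and 8.85% near another mOL peak, 8.23% of lost peaks were near another iOL peak, and 41.7% of iOL neighbourhoods held mOL Brg1. With 20 kb these were 11.0, 21.8, 22.0 and 45.7%. As reported at 10 kb they were 6.14, 14.0, 13.1 and 43.1%. The distance of gained peaks to H3K4me3 was 102 kb with the iOL list, and dividing widths by the list median gave a log2 ratio of -0.07. With H3K27Ac lists of equal length (21589 peaks), mOL acetylation was 59.6% of gained and 35.9% of lost peaks, with the middle 200 bp of Brg1 peaks 69.2 and 42.6%, and counting H3K27Ac within 1000 bp gave 47.7% of lost peaks.

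Added after seeing the data, the wider 50% of 1 list against the whole of the other gave 41.5% gained and 48.8% lost, and the mOL H3K4me3 list shortened to the 10467 widest peaks put gained peaks 80.9 kb from it. Also added were 3 alternatives each for the differences over width quintiles. Gained minus kept ran from -2.43 to -0.440 points and lost minus kept from -22.6 to -22.1. For lost minus kept, equal H3K27Ac lists of 21589 peaks left the iOL list unchanged. That alternative gave the reported value by construction. The cause of these shifts was not tested beyond what each alternative fixes by its construction. No paired analysis was possible because each target has 1 library per stage. Depth, peak height and replicate error are unknown, which limits every value here to the called positions.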

Other observations

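The mOL Brg1 list is not in genomic order, and its later runs held wider and more often acetylated peaks. The sources used here do not say what that order is. With the file split into 10 runs of lines, the median width was 1099 bp in the last, 693 bp in the second and 767 bp in the first, and the share with H3K27Ac of mOL was 92.9% (90.1 to 95.1) in the last and 68.5% (63.9 to 72.8) in the first. The kept share showed no steady trend. It was 66.0% (61.3 to 70.4) in the first run, which stood apart, between 44.7 and 55.5% in the next 8 runs, and 42.8% (38.1 to 47.6) in the last. In the iOL list the 10 runs held between 35.0 and 43.7% kept peaks.

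On chromosome X, the lost places met H3K27Ac in mOL in 28 of 51 cases (54.9%, 40.3 to 68.9) and in iOL in 21 (41.2%, 27.6 to 55.8), and Olig2 in iOL in 37 (72.5%, 58.3 to 84.1). Of the 424 iOL Olig2 peaks on X, 390 (92.0%, 89.0 to 94.4) had no mOL Olig2 peak, against 90.0% over the whole list. Of the 19 mOL Brg1 peaks on X, 7 were gained.

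Gained places with Olig2 in iOL and those without it differed in the stage at which H3K27Ac was met. With Olig2 in iOL, 76.3% (73.6 to 78.8) of 1096 gained places met H3K27Ac in mOL and 53.7% (50.7 to 56.7) in iOL. Without it, 68.1% (65.2 to 70.9) of 1085 met H3K27Ac in mOL and 25.4% (22.9 to 28.1) in iOL. Kept places without Olig2 in iOL met it in 69.7% (64.0 to 74.9) of 290 cases in mOL and 46.2% (40.4 to 52.1) in iOL.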
